A study of Mus musculus with 16 samples.

Results

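The 4 Notch receptor genes, *Notch1*, *Notch2*, *Notch3* and *Notch4*, were followed through the chromatin accessibility data of mouse small cell lung cancer (SCLC). A peak belonged to a receptor when the nearest protein-coding transcription start site to the center of the peak was that of the receptor, and 45 of the 80367 listed peaks met this rule. *Notch2* had 19 of them, *Notch1* 13, *Notch3* 8 and *Notch4* 5. The assay was ATAC-seq, in which the Tn5 transposase inserts sequencing adaptors where DNA is open. The source was the *TKO*;*Hes1* GFP/+ mouse, whose floxed *Rb*, *p53* and *p130* alleles were deleted in the lung by an adenovirus carrying Cre under the CMV promoter, delivered to the airways of adult mice, and whose GFP is expressed from the endogenous *Hes1* locus. Tumors were pooled within each mouse several months later, and cells were sorted for CD24 and against CD45, CD31 and TER-119. GFP high cells (the non-neuroendocrine, or non-NE, cells) were compared with GFP neg cells (the neuroendocrine, or NE, cells), and both groups carried the same deletions. The sample labels gave 8 libraries in 4 pairs from 3 mice, with 2 of the pairs from 1 mouse, and 16 sequencing runs on 2 lanes. The CMV promoter is not restricted to a cell type, so the cell of origin of each tumor is not set by the Cre, and cells are sorted on a reporter of *Hes1*, itself a Notch target.

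The deposited values describe the comparison as a whole. Each peak had a mean normalized read count over all libraries, a log2 fold change (the GFP high population relative to the GFP neg one) with a standard error (SE), and an adjusted p from the Wald test of DESeq2. A positive log2 fold change means a peak more open in the GFP high cells, called opened here, and a negative one a peak called closed. Values per library were not used here. The sequencing depth is therefore unknown, and only the SE carries the variation among the samples. How the 16 runs and the pairs of the same mouse entered the authors' model is not given in the sources used here, so the SEs, intervals and adjusted p-values may treat runs or pairs of 1 mouse as separate replicates. Of the listed peaks, 50.8% were opened. Listed peaks had all passed limits of 0.001 on the adjusted p and of 1 on the size of the log2 fold change, so sites that did not pass were not analysed here. A site open in more cells of a population and a site more open in each cell cannot be told apart in such data.

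Notch receptors are single-pass membrane proteins. Binding of a Delta or Jagged ligand on a neighboring cell exposes the receptor to cleavage by ADAM10 and then by gamma-secretase, and the released intracellular domain enters the nucleus, where it joins the DNA-binding protein RBPJ and a Mastermind co-activator to turn on targets such as *Hes1*. In the lung, Notch signaling favors club cell fate over neuroendocrine fate, and in SCLC it can act against the NE state. YAP1, a co-activator of the Hippo pathway, reaches DNA through the TEAD factors.

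The following sequences are shown because they adjoin the start sites of the receptors with opened promoters, although they cover only part of the promoter peaks. They are the 250 bases upstream of the RefSeq start on GRCm38.p6, in gene orientation, and the RefSeq start of *Notch3* lies slightly upstream of the GENCODE start used for distances. Exact matches to TGGGAA, the core of the RBPJ site, or to CATTCC, the core of the TEAD site, are in capitals on either strand, where they read TTCCCA and GGAATG. The string of one family can share bases with that of the other where CATTCC is followed by CA.
*Notch1* chr2:26503823-26504072, minus strand: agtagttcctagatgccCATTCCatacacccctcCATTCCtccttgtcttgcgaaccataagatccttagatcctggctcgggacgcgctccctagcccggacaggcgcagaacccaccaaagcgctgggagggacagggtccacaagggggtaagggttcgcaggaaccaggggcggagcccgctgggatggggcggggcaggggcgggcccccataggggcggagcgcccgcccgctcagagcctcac
*Notch2* chr3:98013288-98013537, plus strand: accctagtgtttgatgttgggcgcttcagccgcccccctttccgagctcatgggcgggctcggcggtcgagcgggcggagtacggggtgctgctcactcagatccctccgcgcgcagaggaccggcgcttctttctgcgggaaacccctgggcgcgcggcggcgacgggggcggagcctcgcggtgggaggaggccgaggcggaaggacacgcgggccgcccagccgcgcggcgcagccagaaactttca
*Notch3* chr17:32166891-32167140, minus strand: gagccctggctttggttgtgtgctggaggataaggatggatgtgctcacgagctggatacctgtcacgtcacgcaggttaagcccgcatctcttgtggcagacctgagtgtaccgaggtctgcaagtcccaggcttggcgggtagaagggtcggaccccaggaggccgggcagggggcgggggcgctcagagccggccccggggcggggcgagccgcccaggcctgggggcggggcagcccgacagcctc
Of all 32851 RefSeq promoters, 21.6% held the RBPJ string in this window and 12.6% the TEAD string. The window of *Notch1* held 2 TEAD strings, whose first bases lay 233 and 216 bases upstream of the start site, and those of *Notch2* and *Notch3* held neither string. The windows were rich in G and C, at 66.0% in *Notch1*, 72.0% in *Notch2* and 68.8% in *Notch3*.

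Further sequences are shown because they lie under the peaks described next, from the reference genome GRCm38.p6 in gene orientation and with the same capitals. They are the second promoter peak of *Notch1*, the center of the peak in the first intron of *Notch1*, the 90 bases between the ends of the *Notch2* primers that the study used for YAP1 chromatin immunoprecipitation, the center of the opened peak and the whole of the closed peak that were the most significant of all receptor peaks, and the closed peaks upstream of *Notch4*.
*Notch1* upstream peak chr2:26504108-26504323, minus strand: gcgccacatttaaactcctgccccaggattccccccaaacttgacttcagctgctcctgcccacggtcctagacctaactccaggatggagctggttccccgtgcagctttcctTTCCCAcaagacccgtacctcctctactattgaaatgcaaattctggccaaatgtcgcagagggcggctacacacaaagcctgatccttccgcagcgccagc
*Notch1* intron 1 chr2:26502318-26502617, minus strand: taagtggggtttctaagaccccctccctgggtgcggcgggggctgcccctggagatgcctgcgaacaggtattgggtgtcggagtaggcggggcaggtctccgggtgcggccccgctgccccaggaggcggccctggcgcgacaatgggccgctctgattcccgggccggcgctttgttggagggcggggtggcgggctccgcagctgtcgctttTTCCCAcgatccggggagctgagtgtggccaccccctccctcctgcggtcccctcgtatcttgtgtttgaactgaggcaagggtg
*Notch2* intron 1 amplicon chr3:98014106-98014195, plus strand: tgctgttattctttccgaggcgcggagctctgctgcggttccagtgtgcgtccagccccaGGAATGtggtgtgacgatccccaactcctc
*Notch2* intron 2, opened, chr3:98050525-98050824, plus strand: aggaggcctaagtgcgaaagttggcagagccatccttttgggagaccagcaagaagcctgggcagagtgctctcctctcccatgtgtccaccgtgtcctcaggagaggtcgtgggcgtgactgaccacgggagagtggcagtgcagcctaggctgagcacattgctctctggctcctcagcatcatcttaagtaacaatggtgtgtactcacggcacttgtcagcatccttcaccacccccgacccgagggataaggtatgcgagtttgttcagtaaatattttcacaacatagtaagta
*Notch2* intron 4, closed, chr3:98075503-98075715, plus strand: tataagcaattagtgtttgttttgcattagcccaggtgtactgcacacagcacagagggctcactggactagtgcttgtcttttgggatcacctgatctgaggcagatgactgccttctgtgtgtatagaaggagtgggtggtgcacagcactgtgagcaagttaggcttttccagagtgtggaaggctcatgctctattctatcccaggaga
*Notch4* upstream, closed, chr17:34561293-34561426, plus strand: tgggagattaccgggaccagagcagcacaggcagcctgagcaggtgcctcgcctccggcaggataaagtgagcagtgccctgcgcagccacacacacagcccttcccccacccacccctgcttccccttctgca
*Notch4* upstream, closed, chr17:34561563-34561731, plus strand: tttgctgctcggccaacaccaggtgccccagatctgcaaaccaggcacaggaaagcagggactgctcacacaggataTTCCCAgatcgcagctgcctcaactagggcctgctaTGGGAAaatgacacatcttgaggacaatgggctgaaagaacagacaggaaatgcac
Among the central 300 bases of all listed peaks, 26.8% held the RBPJ string and 18.7% the TEAD string. Both *Notch1* stretches held 1 RBPJ string, the *Notch2* amplicon held 1 TEAD string, and the *Notch4* peak nearer the start site held 2 RBPJ strings.

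The receptors divided by direction. All 13 peaks of *Notch1* and all 8 peaks of *Notch3* were opened, *Notch2* had 13 opened and 6 closed peaks, and all 5 peaks of *Notch4* were closed. In sum 34 of the 45 peaks (75.6%) were opened, against 50.8% of all listed peaks. Among peaks within 1 Mb of a receptor start site but not assigned to that receptor, the opened share was also high, from 77.5% to 95.8%. The opened receptor peaks had a median log2 fold change of 2.97, close to 2.92 for all opened peaks, and the closed ones a median of -2.64, close to -2.66 for all closed peaks. Read counts differed between the directions. The opened receptor peaks had a median of 43.3 normalized reads, near the 40.7 of all opened peaks, whereas the closed ones had a median of 13.6, against 25.8 for all closed peaks. The low median came from *Notch4*, whose closed peaks had a median of 9.36 reads, while those of *Notch2* had a median of 33.4. The plot of receptor peaks by distance shows where these peaks lie.

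**Figure D1:**
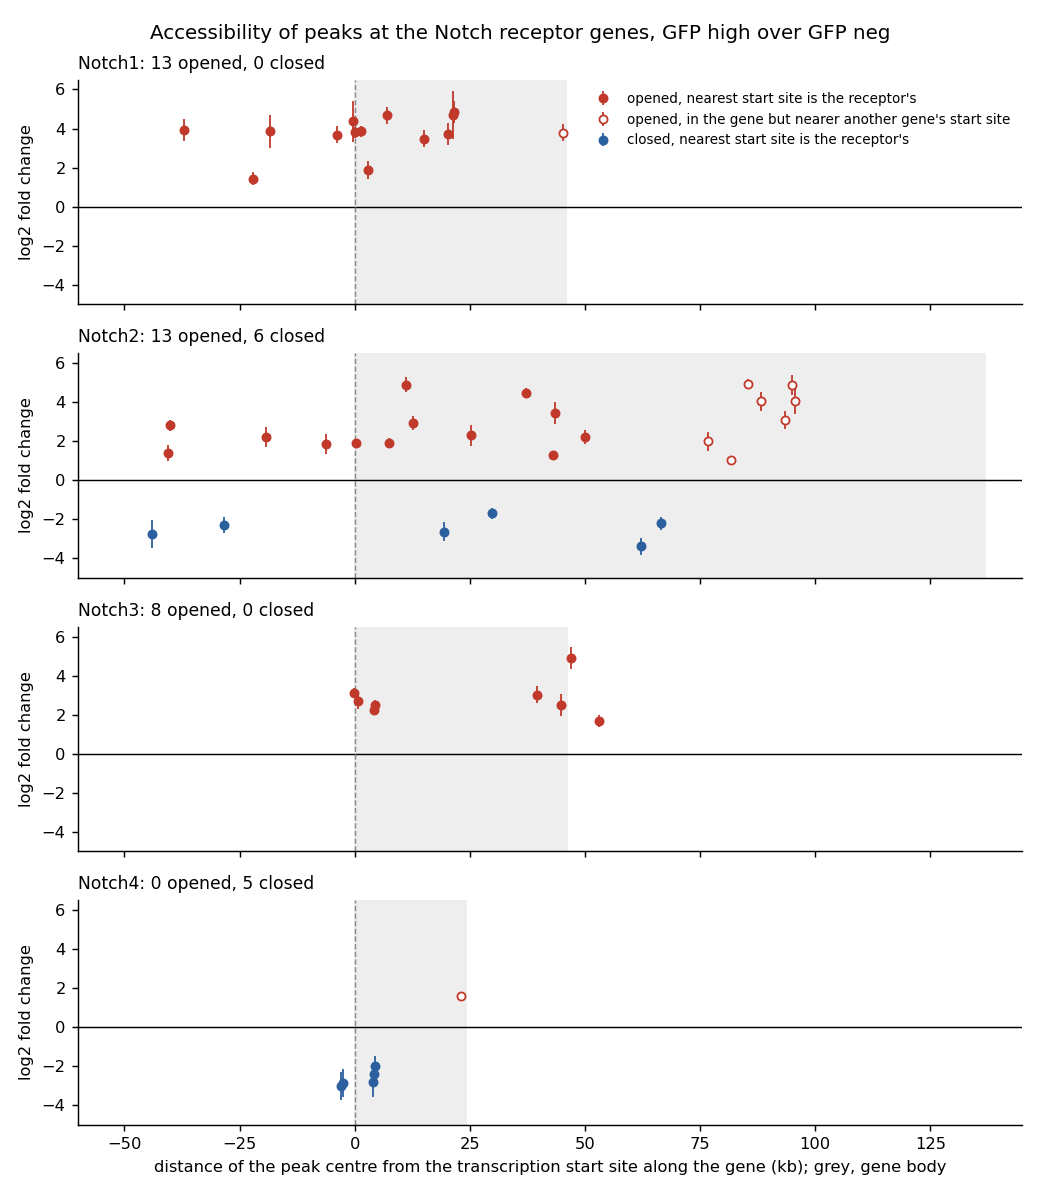
Log2 fold change of accessibility (GFP high over GFP neg, vertical axis) against distance from the transcription start site in kb, for the 4 receptors. Points are peaks with bars of 1 SE, red for opened and blue for closed; open circles are opened peaks inside the gene that lie nearer the start site of another gene. *Notch1* has opened peaks on both sides of the start site, and *Notch3* has them at the start site and downstream of it. Neither has a closed peak, while *Notch4* has closed peaks near its start site.

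*Notch1* (chr2:26457903-26503822, minus strand, 34 exons) was opened from the promoter into the gene and upstream of it. The promoter peak, chr2:26503568-26504037, had 239.7 normalized reads and spanned from 215 bases upstream to 254 bases downstream of the start site. It was 13.9-fold more open in GFP high cells, with a log2 fold change of 3.80 ± 0.26 (SE; 95% interval 3.29 to 4.30; DESeq2 adjusted p = 3.72e-47). Of all 7694 opened promoter peaks, meaning those with a center within 1 kb of a start site, 95.4% had a smaller change. A second promoter peak followed 70 bases further upstream, at chr2:26504108-26504323. This peak had a log2 fold change of 4.37, but its SE of 1.06 was the largest of the receptor peaks with over 10 reads, and its 95% interval ran from 2.30 to 6.45. Of the 2 TEAD strings in the printed promoter, the one nearer the start site crossed the upstream edge of the promoter peak, and the other lay between both peaks. The upstream peak held an RBPJ string 387 bases before the start site.

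Inside *Notch1*, the most significant intronic peak lay in intron 1, at chr2:26502276-26502660, with 161 normalized reads and a log2 fold change of 3.86 ± 0.29 (adjusted p = 1.03e-38). It held an RBPJ string 1420 bases downstream of the start site, in the longer form GTGGGAA. Intron 2 had peaks at 2.80, 7.07 and 15.1 kb from the start site, with log2 fold changes of 1.88 ± 0.45, 4.69 ± 0.43 and 3.48 ± 0.43. Intron 4 had a cluster of 3 peaks between 20.3 and 21.6 kb, with log2 fold changes of 3.73 ± 0.58, 4.68 ± 1.22 and 4.85 ± 0.55. The peak with the value of 4.68 was 73 bp wide, had 7.05 reads and lay 17 bases from its neighbor. Upstream of the gene, peaks at 3.87, 18.3 and 37.1 kb had log2 fold changes of 3.69 ± 0.43, 3.86 ± 0.85 and 3.92 ± 0.58. The peak at 22.1 kb upstream changed least, with a log2 fold change of 1.44 ± 0.35. The values show that 11 of the 13 *Notch1* peaks exceeded a log2 fold change of 3.

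*Notch2* (chr3:98013538-98150361, plus strand, 34 exons) had opened and closed peaks, and both directions occurred in intron 1. Its promoter peak, chr3:98013206-98014284, was the receptor peak with the most reads, 429.9, and the widest, 1079 bp. It was 3.68-fold more open in GFP high cells, with a log2 fold change of 1.88 ± 0.18 (95% interval 1.53 to 2.23; adjusted p = 2.34e-24), and 64.8% of opened promoter peaks changed less. The peak ran from 332 bases upstream of the start site to 746 bases downstream and so covered exon 1 and the start of intron 1. The printed amplicon of the YAP1 immunoprecipitation primers lay in intron 1, from 568 to 657 bases downstream of the start site, inside this peak. Its TEAD string began 628 bases downstream and was the match with ACATTCC, the longer form. An RBPJ string of the same peak began 429 bases downstream.

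The opened *Notch2* peak with the smallest adjusted p of all receptor peaks lay in intron 2, 37.1 kb from the start site. It covered chr3:98050282-98051068, had 263 normalized reads and was 21.9-fold more open, with a log2 fold change of 4.45 ± 0.24 (95% interval 3.98 to 4.93; adjusted p = 1.9e-72). Its interval did not overlap that of the *Notch2* promoter peak. Its printed center held neither string, while the flank held an RBPJ string 37.4 kb from the start site. In intron 1, the peak at chr3:98024513-98024881 had 104 reads and a log2 fold change of 4.89 ± 0.37 (adjusted p = 1.07e-37) and held 2 TEAD strings. Its neighbor at chr3:98026046-98026286, with a log2 fold change of 2.92 ± 0.34, held 1 TEAD string in its central 200 bp. The other 5 opened intronic peaks had log2 fold changes between 1.27 and 3.45. Upstream, opened peaks lay 6.31, 19.2, 40.0 and 40.5 kb from the start site, with log2 fold changes of 1.86 ± 0.52, 2.20 ± 0.52, 2.81 ± 0.28 and 1.40 ± 0.40.

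The 6 closed peaks of *Notch2* were interspersed with the opened ones. The peak with the smallest adjusted p, chr3:98075503-98075715 in intron 4, had 37.7 normalized reads and a log2 fold change of -3.38 ± 0.43 (95% interval -4.22 to -2.54; adjusted p = 2.25e-14). Another in intron 4, 66.4 kb from the start site, had a log2 fold change of -2.20 ± 0.33. Intron 1 held closed peaks at 19.5 and 29.8 kb, with log2 fold changes of -2.64 ± 0.47 and -1.70 ± 0.30. Upstream, closed peaks at 28.4 and 43.9 kb had log2 fold changes of -2.28 ± 0.42 and -2.77 ± 0.72. Both directions thus occurred in intron 1 and upstream of the gene, and both peaks assigned to *Notch2* in intron 4 were closed.

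*Notch3* (chr17:32120820-32166852, minus strand, 33 exons) had opened peaks at both ends of the gene. The promoter peak, chr17:32166744-32167063, had 114 normalized reads and ran from 211 bases upstream to 108 bases downstream of the start site. It was 8.61-fold more open, with a log2 fold change of 3.11 ± 0.26 (95% interval 2.60 to 3.61; adjusted p = 1.05e-31), above 90.9% of opened promoter peaks, and held an RBPJ string 14 bases downstream of the start site. A second promoter peak in intron 1, chr17:32166045-32166252, had a log2 fold change of 2.70 ± 0.40 (adjusted p = 5.98e-11). A pair of peaks in intron 2, separated by 85 bases, had 201 and 138 reads and log2 fold changes of 2.50 ± 0.23 and 2.21 ± 0.24 (adjusted p = 1.26e-25 and 1.11e-18). At the far end of the gene, peaks in intron 31 and exon 33 had log2 fold changes of 3.01 ± 0.44 and 2.49 ± 0.58. Beyond the gene, peaks at 47.1 and 53.1 kb from the start site had log2 fold changes of 4.92 ± 0.56 and 1.67 ± 0.32. The first of these had the largest change of any receptor peak. Both lay within *Gm17276*, annotated as an antisense RNA, and ATAC-seq does not distinguish strands.

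*Notch4* (chr17:34564268-34588503, plus strand, 30 exons) differed from the other receptors in direction and in reads. Its 5 closed peaks had 6.74 to 13.6 normalized reads, and none lay within 1 kb of the start site. Upstream, chr17:34561293-34561426 had a log2 fold change of -3.02 ± 0.71 (95% interval -4.41 to -1.64; adjusted p = 4.46e-05), and chr17:34561563-34561731 had one of -2.85 ± 0.71 (adjusted p = 0.000133). Downstream, peaks in exons 5, 6 and 7, between 3.98 and 4.48 kb from the start site, had log2 fold changes of -2.82 ± 0.79, -2.40 ± 0.58 and -1.997 ± 0.534. The smallest adjusted p of these was 6.88e-05, and with a limit of 1e-05 no *Notch4* peak would remain.

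The promoters of *Notch1*, *Notch2* and *Notch3* were opened and that of *Notch4* had no listed peak. Among all 21911 protein-coding genes, 28.7% had an opened promoter peak and 8.65% a closed one. No receptor had a closed promoter peak within 1 kb, whereas within 3 kb *Notch4* had 2, its upstream peaks. The 95% intervals of the *Notch1* and *Notch3* promoter peaks nearest to the start sites overlapped, and both lay above that of *Notch2*. These differences between peaks were not tested, because all values come from the same libraries. The median log2 fold change of all opened promoter peaks was 1.64, with a median of 169 reads, so the *Notch2* promoter stood near this median and those of *Notch1* and *Notch3* above it.

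**Figure D2:**
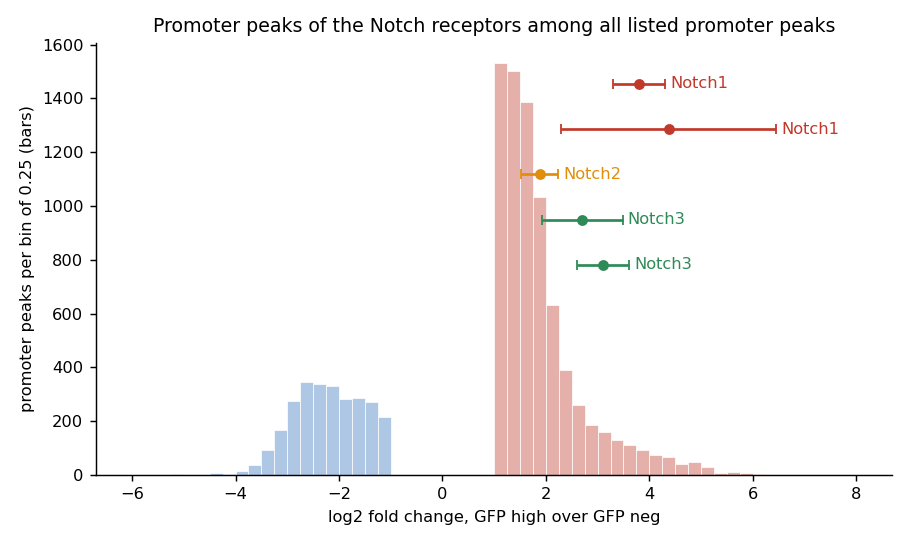
Promoter peaks of the Notch receptors as points, with bars of the 95% interval, on the axis of log2 fold change (GFP high against GFP neg); the bars show the number of all listed promoter peaks in bins of 0.25, red for opened and blue for closed. The points of *Notch1* (3.80 and 4.37) and *Notch3* (2.70 and 3.11) sit in the right tail of the opened promoters and that of *Notch2* (1.88) near their center. The points' vertical positions carry no value.

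Counted per gene, *Notch1* and *Notch2* each had more opened peaks than most genes. An opened peak was assigned to 52.2% of protein-coding genes and a closed peak to 42.0%, and the mean was 1.86 opened and 1.80 closed peaks per gene. Of the 21911 genes, 462 (2.11%) had at least 13 opened peaks. Of these, 53 genes, *Notch1* included, had no closed peak. At least 8 opened and no closed peaks were found in 244 genes, including *Notch3*, and at least 5 closed and no opened peaks in 700 genes, including *Notch4*. *Notch2* was 1 of 246 genes with at least 13 opened and 6 closed peaks. These counts depend on how much genome lies nearest to a gene. The stretch nearer to the start site of *Notch1* than to any other was 67.9 kb and held 1.91 opened peaks per 10 kb, against 1.00 in the 129.7 kb of *Notch2*, 1.05 in the 76.6 kb of *Notch3* and 0.154 over all genes. Closed peaks numbered 1.38 per 10 kb in the 36.2 kb of *Notch4* and 0.463 in *Notch2*, against 0.149 over all genes.

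**Figure D3:**
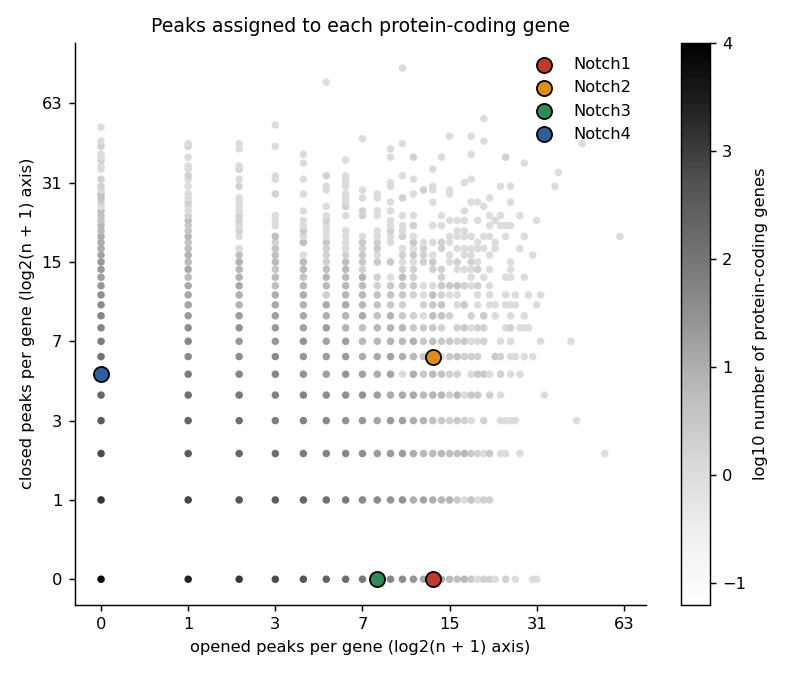
Opened (horizontal) and closed (vertical) peaks per protein-coding gene, on axes of log2(n + 1), with gray shading for the number of genes at each point and the receptors in color. *Notch1* (13 opened, 0 closed) and *Notch3* (8 opened, 0 closed) lie on the lower edge, *Notch4* (0 opened, 5 closed) on the left edge, and *Notch2* (13 opened, 6 closed) in the interior.

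By the distance of log2(opened + 1), log2(closed + 1) and the mean log2 fold change, the genes most like *Notch1* were *Kdm2b*, a histone demethylase gene with 13 opened peaks (distance 0.0194), *Rpl31*, which encodes a ribosomal protein (0.0494), and *2410131K14Rik* (0.108). Those most like *Notch2* were *Arl4c*, *Tet2* and *Sept9*, at distances of 0.125, 0.193 and 0.203. *Oat*, *Slc25a10* and *Ptk7* were most like *Notch3* (0.0122, 0.0207 and 0.0401), and *Rad21*, *4930447A16Rik* and *Sdc3* were most like *Notch4* (0.0014, 0.0036 and 0.0084). The likeness rests on these 3 values per gene, from 1 comparison.

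The rule of the nearest start site left out 9 listed peaks inside the receptor genes, and all 9 were opened. Introns 5 to 12 of *Notch2* held 7 of them, assigned to *Adam30*, a testis-expressed metalloprotease gene, whose start site was nearer at 51.5 to 70.4 kb. The peak with the smallest adjusted p among them, chr3:98098624-98099069 in intron 6, had 212 normalized reads and a log2 fold change of 4.93 ± 0.27 (adjusted p = 4.15e-71). Of the others, 3, in introns 9 and 12, had log2 fold changes of 4.05 ± 0.48, 4.89 ± 0.51 and 4.05 ± 0.64. The remaining 3 had smaller values, 1.98 ± 0.48 and 1.03 ± 0.22 in intron 5 and 3.07 ± 0.45 in intron 11. Counting by gene body, *Notch2* held 16 opened and 4 closed peaks. In *Notch1*, exon 34 held a peak with a log2 fold change of 3.79 ± 0.43 assigned to *Sec16a*, so that 9 opened and no closed peaks lay in the gene. In *Notch4*, intron 29 held an opened peak assigned to *Gpsm3*, chr17:34586753-34587836, with 484 reads and a log2 fold change of 1.62 ± 0.19 (adjusted p = 6.54e-17), which lay 23.0 kb from the *Notch4* start site and 2.5 kb from that of *Gpsm3*. With the gene body and 10 kb on either side counted in place of the nearest start site, *Notch4* had 3 opened peaks besides its 5 closed ones. These opened peaks were the one in intron 29 and the promoter peaks of 2 other genes, *Pbx2* and *Ager*.

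The start sites of non-coding genes lay nearer to many of the peaks. With start sites of all gene types, *Notch1* kept 9 of its 13 opened peaks, *Notch2* kept 6 opened and 1 closed peaks, *Notch3* 4 opened and *Notch4* 2 closed ones. Those that left *Notch1* were assigned to *Mir6996* (3) and the pseudogene *Gm13358* (1). The peaks that left *Notch2* were assigned chiefly to *Gm42819* (7 opened and 3 closed), those of *Notch3* to *Gm17276* (4 opened) and those of *Notch4* to the pseudogene *Gm20462* (3 closed).

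The surroundings of the receptors were mostly opened. Among peaks within 1 Mb of the start site that were not assigned to the receptor, 79.1% of 91 were opened around *Notch1*, 77.5% of 71 around *Notch2* and 82.6% of 121 around *Notch3*. Around *Notch4*, 158 of 165 such peaks (95.8%) were opened, while all 5 peaks assigned to *Notch4* were closed. The opened peaks around *Notch4* include the intronic peak inside the gene that was assigned to *Gpsm3*. Counted by gene body, *Notch4* held 1 opened and 3 closed peaks, so the contrast depends on the rule of assignment. On the whole of chromosomes 2, 3 and 17, the opened share was 53.5%, 41.7% and 54.3%. Of the genes with the nearest start sites, *Sec16a* and *Egfl7* beside *Notch1*, *Sec22b* beside *Notch2* and *Ephx3* beside *Notch3* each had an opened promoter peak, and *Adam30*, *Hsf2bp*, *Btnl6* and *Gpsm3* had none. Past *Gpsm3*, named after their values were seen, the promoters of *Pbx2* (log2 fold change 1.83 ± 0.22) and *Ager* (4.06 ± 0.34), which encodes a receptor abundant in alveolar type 1 cells, were opened. The paper reports that immunostaining of tumor sections did not detect the AGER protein.

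Strings of transcription factor sites were counted in the central 200 bp of each peak, on both strands, a window that reaches beyond peaks narrower than 200 bp. The RBPJ string TGGGAA lay in 9 of the 45 receptor peaks, against 18.5% of all listed peaks, and the longer GTGGGAA in 5 (11.1%), against 4.89%. The TEAD string CATTCC lay in 2 receptor peaks (4.44%), against 13.5% of all listed peaks. Both were opened, which is 5.88% of the opened receptor peaks, against 18.2% of all opened peaks. Over whole peaks these were 13 peaks with an RBPJ string (28.9%, against 26.1% of all listed peaks) and 5 with a TEAD string (11.1%, against 18.8%). Of the latter, 4 were opened and belonged to *Notch1* (1) or *Notch2* (3). The AP-1 string TGANTCA lay in 8 peaks (17.8% against 18.4%), the E-box CAGCTG in the windows of 9 (against 17.2%), in 1 of which the string lay outside the peak itself, and the FOX string TGTTTAC in 1 *Notch3* peak (2.22% against 8.25%). Among opened peaks alone, the AP-1 string lay in 17.6% of receptor peaks against 10.6% of all, and the E-box in 20.6% against 12.0%. The NFI palindrome was found in none, against 0.07% of listed peaks. With 45 peaks on 4 genes these shares are descriptions, and a match is not evidence of binding.

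The other genes of the pathway were ordered by role. Of the 8 ligands, none had an opened promoter peak (28.7% of all genes) and 2 had a closed one (8.65% of all genes), in *Dll1*, which encodes an activating Delta ligand, and *Dner*, which encodes a non-canonical ligand expressed in neurons. Their 61 peaks were 18 opened and 43 closed, a median log2 fold change of -2.40. *Dner* had 1 opened and 16 closed peaks, with a promoter log2 fold change of -2.67 ± 0.19 (adjusted p = 1.04e-41). *Jag1*, the gene of a Jagged ligand, had 13 opened and 7 closed peaks and no listed promoter peak. The receptors and the ligands thus had opened shares of 75.6% and 29.5%, but the difference was not tested because peaks of 1 gene are not replicates.

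**Figure D4:**
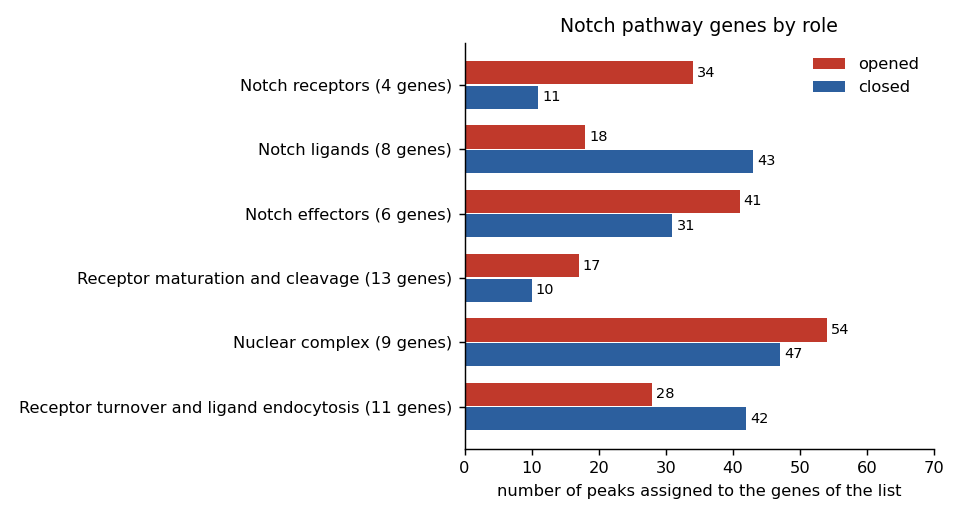
Number of opened (red) and closed (blue) peaks assigned to the genes of each list of the Notch pathway, with the count beside each bar. The receptors have more opened than closed peaks (34 and 11), and the ligands more closed than opened ones (43 and 18).

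Of the 6 effectors, *Hes1* and *Nrarp*, a feedback inhibitor of Notch signaling, had opened promoter peaks (28.7% of all genes), and none had a closed one. *Hes1*, whose reporter defined the sort, had a promoter log2 fold change of 2.99 ± 0.22, with 26 opened and 11 closed peaks. *Hey1*, another repressor gene downstream of Notch, had 1 opened and 13 closed peaks. In the list of receptor maturation and cleavage, 7 of 13 genes had an opened promoter peak and 1, *Mfng*, a closed one, against 28.7% and 8.65% of all protein-coding genes. The promoters of *Adam10*, the receptor protease, and *Psen2*, a catalytic subunit of gamma-secretase, had log2 fold changes of 1.39 ± 0.18 and 1.14 ± 0.16, smaller than those of the receptors. In the nuclear complex, 5 of 9 genes had an opened promoter peak, against the same 28.7%, and none a closed one. *Rbpj* had 9 opened and 9 closed peaks and no listed promoter peak, and *Maml3* had 18 opened and 32 closed peaks, with a promoter log2 fold change of 1.40 ± 0.17. In the list of turnover and endocytosis, 4 of 11 genes had an opened and 2 a closed promoter peak, against 28.7% and 8.65% of all genes. The closed ones were *Neurl1a*, a ligand-directed ubiquitin ligase gene (-2.81 ± 0.23), and *Fbxw7*, whose product marks the intracellular domain for degradation (-1.74 ± 0.24). *Neurl1a* had 1 opened and 16 closed peaks, and *Fbxw7* had 10 opened and 16 closed ones, the largest change being an opened peak with a log2 fold change of 6.14 ± 0.59. *Adam10* had 3 opened and 2 closed peaks, and *Psen2* 4 opened and 3 closed.

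Marker genes were set beside the labels of the sorted cells. The lists were chosen with earlier results of these data known, so they are not an independent check. Of 8 NE markers, 7 had a closed promoter peak and none an opened one, and of 5 club cell markers, 4 had an opened promoter peak and none a closed one. Over all protein-coding genes, these shares were 8.65% closed and 28.7% opened, and 50.8% of all listed peaks were opened, against which the lists of other cell types are to be read. *Chga*, which encodes the secretory granule protein chromogranin A, had a promoter log2 fold change of -2.85 ± 0.21, although its 14 assigned peaks were 8 opened and 6 closed. *Insm1*, an NE transcription factor gene, had 28 closed peaks and no opened one. *Scgb1a1*, the club cell secretoglobin gene, had a promoter log2 fold change of 4.76 ± 0.25, with 12 opened and 3 closed peaks, and all 7 peaks of *Chad* were opened. Receptors are also expressed in cells outside the tumor epithelium, *Notch1* and *Notch4* in endothelium and *Notch3* in mural cells. The 12 endothelial markers had 32 opened and 63 closed peaks, with opened promoters in *Kdr* and *Egfl7* and closed ones in *Tek* and *Erg*. *Cdh5*, which encodes VE-cadherin, had 2 opened and 23 closed peaks, and *Kdr*, a VEGF receptor gene, 7 opened and 11 closed. The mural markers had 15 opened and 11 closed peaks over 9 genes and 1 closed promoter, that of *Kcnj8* (1 opened and 5 closed peaks), while *Myh11*, a smooth muscle myosin gene, had 3 opened and 2 closed peaks. The leukocyte markers had 16 opened and 5 closed peaks over 8 genes, with an opened promoter in *Cd68*. *Ptprc*, which encodes CD45, had 11 opened and 5 closed peaks, and *Spi1* 2 opened ones. The fibroblast markers had 10 opened and 13 closed peaks over 6 genes, with an opened promoter in *Col1a1* and a closed one in *Col1a2*. *Dcn* had 3 opened and 6 closed peaks and *Col1a1* 7 opened ones. No listed peak was assigned to 1 mural, 3 leukocyte and 2 fibroblast markers, and every endothelial marker had at least 1. The sort removed cells with CD45 or CD31, and the part of such cells in the receptor values was not tested.

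The precision of the receptor values varied with their reads and between genes. Compared with all listed peaks of a read count within a factor of 1.1, 24 of the 45 receptor peaks had an SE above the median, 6 above the 95th percentile and 6 below the 5th. The second promoter peak of *Notch1* stood furthest out, with an SE of 1.06 where such peaks had a median SE of 0.349. In *Notch1*, 11 of 13 peaks had an SE above the median of peaks with like reads, 3 of them above the 95th percentile. This comparison matched peaks on reads and not on the size of the fold change. The *Notch1* peaks below the median were those that changed least, with log2 fold changes of 1.88 and 1.44. In *Notch2* 7 of 19 and in *Notch3* 6 of 8 peaks lay above the median. All 5 *Notch4* peaks had an SE below the median of peaks with like reads, and their width of uncertainty comes with their low counts.

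**Figure D5:**
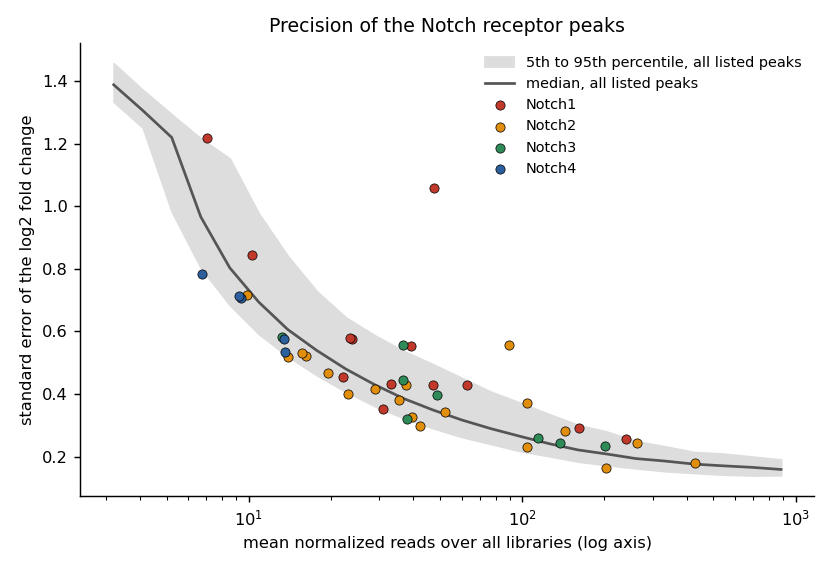
SE of the log2 fold change (vertical) against mean normalized reads over all libraries (horizontal, log axis) for the 45 receptor peaks, with the median and the 5th to 95th percentile of all listed peaks as a line and a gray band. The *Notch4* peaks sit at the low-read end with SEs between 0.53 and 0.79, and the second *Notch1* promoter peak (47.4 reads, SE 1.06) lies far above the band.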

How the data were processed

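ATAC-seq was performed on sorted GFP high and GFP neg SCLC cells. The authors trimmed adaptors, aligned reads to mm10 with Bowtie2 2.3.4.1, removed duplicates, called narrow peaks with MACS2 with reads shifted around Tn5 insertions, merged the peaks of all samples, counted reads per merged peak with bedtools and compared groups with DESeq2 1.28.1. How the lanes and the pairs of the same mouse were combined is not given in the sources used here. The authors deposited, per listed peak, a signal (mean of counts divided by size factors), a log2 fold change, its standard error, the Wald statistic as a score, and p-values with Benjamini-Hochberg adjustment. Both deposited lists hold only the values of the authors' comparison, which are described here and were not refitted.

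Peaks were placed on GRCm38.p6, the assembly of mm10, with start sites and exons of the basic GENCODE annotation, in Python 3.11.15 (numpy 2.4.6, pandas 2.3.3, scipy 1.17.1, matplotlib 3.10.9). A promoter peak had its center within 1 kb of a start site. The 95% intervals are log2 fold change ± SE times the normal quantile. String matches were exact and were counted in the central 200 bp, or in the whole peak where stated. Assignment and string search were tested on simulated data. RefSeq promoters matched 4 of 4 receptors. Named were all receptors, the 2 genes with most peaks of each list, the 3 genes most like each receptor, and the nearest genes on either side. Printed by rule were the promoters and the peaks with the smallest adjusted p. Other genes of the lists and other printed peaks were chosen after their values were seen. A gene of the marker lists is not reported here. The members and lists were chosen with earlier results of these data known.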

Additional observations from a re-analysis of the deposited data

How the results depend on the processing

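Stricter limits on the fold change, assignment by the edge of the peak, a limit of 100 kb, gene bodies with 10 kb on either side and merging of peaks within 100 bp kept the numbers of opened and closed peaks, summed over the receptors, within 1.5 times those reported. With an adjusted p under 1e-05, 5 closed peaks were left. With start sites of all gene types, 19 opened and 3 closed peaks were left, an opened share of 86.4%, since non-coding start sites lay nearer. Within 3 kb of a start site, 9 promoter peaks were counted, among them 2 closed ones of *Notch4*. The longer RBPJ string was found in 5 peaks, and the TEAD string in 5 with the whole peak searched and in 1 in its longer form. Of the 56 counts per receptor under these alternatives, 8 moved by over 1.5 times. Beside those from start sites of all gene types, the opened peaks of *Notch2* fell from 13 to 8 with an absolute log2 fold change over 2. With an adjusted p under 1e-05, *Notch1* kept 8 of 13 opened peaks and *Notch4* none of its closed ones. With gene bodies and 10 kb, *Notch4* went from 0 to 3 opened peaks, among them the promoter peaks of *Pbx2* and *Ager*.

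No paired analysis was possible because the lists hold only values of the whole comparison, so the pairs could not be entered as a replicate block and leaving out each replicate was not run. The SE of each fold change is the limit on precision, and in general it was wider for peaks with fewer reads, among them all *Notch4* peaks.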

Other observations

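Neighboring peaks did not always have like values. In intron 2 of *Notch2*, chr3:98056265-98056807 and chr3:98056917-98057360 were separated by 109 bases. The first had 203 normalized reads and a log2 fold change of 1.27 ± 0.16, an SE below that of 99.5% of listed peaks with like reads. The second had 89.6 reads and a log2 fold change of 3.45 ± 0.56, an SE above that of 98.2% of such peaks. Their 95% intervals, 0.945 to 1.59 and 2.36 to 4.55, did not overlap, and the difference was not tested. Both peaks held an AP-1 string, 43.0 and 43.7 kb from the start site.

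At *Notch1*, the promoter peak and the peak 70 bases upstream of it had log2 fold changes of 3.80 and 4.37 with overlapping intervals, although the SE of the second was larger than that of 99.9% of listed peaks with like reads.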
